A study of Mus musculus with 45 samples.

Results

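The comparison set the polysome fraction against the cytoplasm fraction of control Kit+ cells, that is, of cells from fetuses that carried a floxed ribosomal protein allele but not VavCre. It covers 12 of the 45 libraries of the series, chosen by their labels: the Rpl5flox/+ and the Rps19flox/+ groups without VavCre, with 3 pools each and a polysome and a cytoplasm library from every pool. The table holds 13449 genes, and the 3206 whose normalized counts averaged 500 or more over the 12 libraries were tested. The study as a whole asks what loss of 1 copy of Rpl5 or Rps19 in blood cells does to mRNA levels and to mRNA on ribosomes, and these libraries are its baseline for progenitors. All were made from mouse fetal livers at E15.5. Each fetus carried 1 floxed and 1 ordinary allele of Rpl5 or of Rps19 and had no VavCre, a Cre driven by a promoter active in blood cells, which their mothers carried in 1 copy. Livers were held in emetine, a drug that stops ribosomes on their mRNAs, at 25 µg/mL for 15 min. Kit+ cells were then taken on magnetic beads, and fetuses of 1 genotype were pooled, so that a replicate is a pool and not a single animal. Lysates were spun through sucrose of 10 to 50%, and poly(A) RNA was captured from each fraction.

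An mRNA that is being translated carries several ribosomes at once, a string called a polysome, which sinks further in sucrose than free mRNA or single ribosomes do. How many ribosomes an mRNA carries depends on how often translation starts on it and on how long its coding sequence is. Fetal liver Kit+ cells hold blood stem and progenitor cells, many of them on the way to red cells. Values here are log2 differences, polysome minus cytoplasm, from limma with the pool as a block, ± the standard error (SE), with Benjamini-Hochberg adjusted p-values over all genes tested and a threshold of 0.05. Each library was scaled by its own size factor, so a difference places an mRNA against the other mRNAs of the same fractions and does not give the share of its molecules on ribosomes.

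The cytoplasm libraries held 29.3 to 41.7 M reads and the polysome libraries 1.01 to 7.17 M, with 3 of the 6 under 2 M: Rpl5flox/+ replicate 3, Rps19flox/+ replicate 1 and Rps19flox/+ replicate 3. In those 3, 1 read was worth 13.2 to 20.8 normalized counts, and 68, 268 and 110 of the tested genes had no read, against 3 to 8 genes in the other polysome libraries. Depth therefore moves with fraction in every pool, and the part of depth in a single low gene cannot be told apart from that of the fraction. The labelled cell type was borne out by its markers. Kit, the receptor used for the sort, was at 1382 to 1971 normalized counts in Kit+ cytoplasm and 3.54 to 83.4 in Ter119+ cytoplasm, and Slc4a1, the red cell anion exchanger, was at 5825 to 9376 against 364399 to 777566. Markers of other cells were present. The 3 granulocyte and monocyte markers summed to 17384 to 35069 on polysomes and 10049 to 15203 in cytoplasm. The 5 hepatocyte markers summed to 5333 to 26693 on polysomes and 2763 to 13872 in cytoplasm, and the 4 macrophage markers to 0 to 396 and 134 to 248, with Adgre1 at 0 in all polysome libraries.

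Most genes tested passed the threshold for a mean difference between the fractions. Of the 3206 genes tested, 59.2% passed, 762 higher on polysomes (23.8%) and 1137 lower (35.5%). The fractions did not overlap for fewer genes: 18.8% had every polysome library above every cytoplasm library, and 28.9% had every one below. Polysomes were rich in mRNAs of ribosomal proteins and of complex I of the respiratory chain. They were poor in mRNAs made inside mitochondria and in mRNAs of splicing factors and red cell membrane proteins. Replication-dependent histone mRNAs, grouped after their values were seen, also lay on the polysome side, which is a description. The median difference was -0.39, with quartiles at -1.2 and 0.52, and the 6 pools had medians between -0.33 and -0.18. Across genes the per-pool differences correlated at 0.87 to 0.89 among the 3 deeper pools and at 0.45 to 0.69 in pairs with a shallower pool. After each library was centred on its median, 886 genes were higher and 884 lower. With all libraries thinned to 1 number of reads outside Lars2, 514 were higher and 1559 lower, so the split between directions depends on the scaling and the counts below are read against it.

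**Figure D1:**
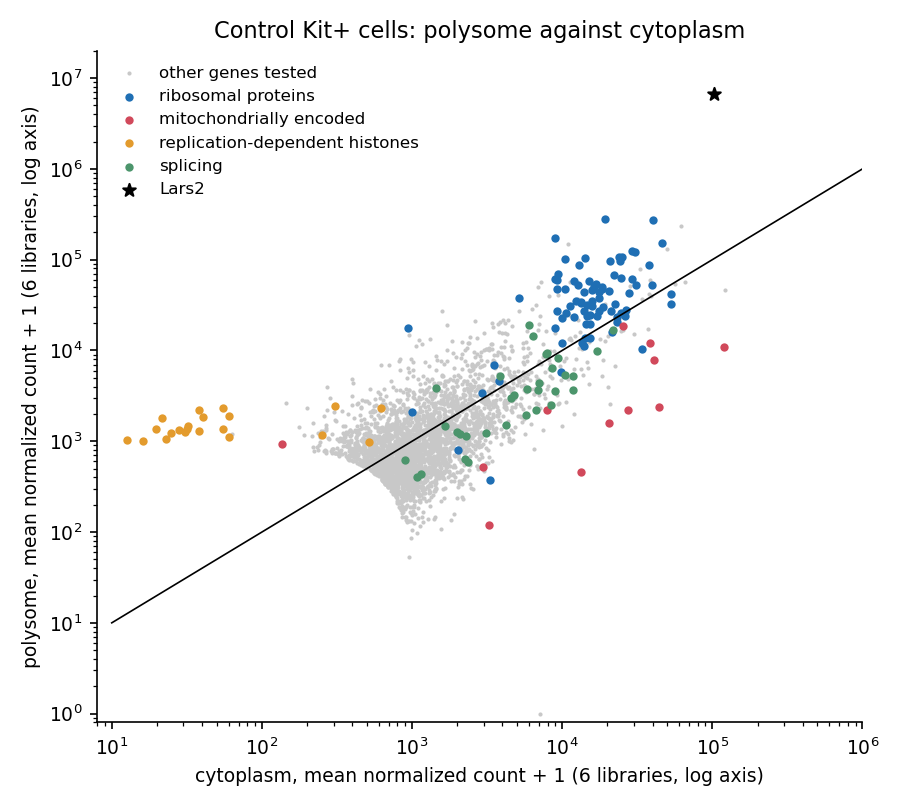
Mean normalized count plus 1 of each of the 3206 tested genes in the 6 cytoplasm libraries (x axis, log) and the 6 polysome libraries (y axis, log), with the line of equality. Ribosomal protein mRNAs (blue) lie mostly above the line, mitochondrially encoded mRNAs (red) mostly below it, splicing factor mRNAs (green) mostly below it, histone mRNAs (orange) far to the left and Lars2 (star) highest of all.

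Ribosomal protein mRNAs stood high on polysomes in both subunits, with large differences among them. For the small subunit 26 of 33 tested members rose and 1 fell, and for the large subunit 35 of 49 tested members rose and 6 fell, beside 23.8% and 35.5% over all genes. Their medians were 1.35 and 0.93, against -0.39 over all genes. In the 3 deeper pools alone the counts were 28 rose and 0 fell of 33 and 38 rose and 5 fell of 49. After thinning they were 24 rose and 5 fell of 33 and 29 rose and 11 fell of 49. The list medians were then 1.0 and 0.557, against -0.735 over all genes. In 26 and 31 members every polysome library was above every cytoplasm library, which held for 18.8% of all tested genes. Many of these mRNAs begin with a run of pyrimidines at their first base, the TOP tract, through which their translation is known to be controlled together.

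The sequences below are shown because they show the same kind of start on mRNAs with high, middling and low differences. Each runs 5′ to 3′ on the coding strand, from 10 bases before to 20 bases after the annotated start in RefSeq (GRCm38.p6), with the pyrimidine tract in capitals.
Rpl38: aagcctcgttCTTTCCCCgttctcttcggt
Rplp2: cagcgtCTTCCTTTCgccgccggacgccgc
Fau: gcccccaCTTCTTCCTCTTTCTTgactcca
Rps6: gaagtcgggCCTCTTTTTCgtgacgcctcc
Rpl35: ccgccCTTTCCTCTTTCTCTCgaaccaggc
Eif3f: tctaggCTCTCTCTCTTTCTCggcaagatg
Eif2s3x: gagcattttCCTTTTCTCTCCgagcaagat
Eef1a1: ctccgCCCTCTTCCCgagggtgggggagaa
In order, these lie at chr11:114668570-114668599 (+), chr7:141447641-141447670 (+), chr19:6057937-6057966 (+), chr4:86857348-86857377 (-), chr2:39005112-39005141 (-), chr7:108934405-108934434 (+), chrX:94212632-94212661 (-) and chr9:78481705-78481734 (-). The start used for Rpl38 lies inside the gene positions given below and not at their first base. A tract was counted where a C followed by at least 6 bases that are each C or T began within 5 bases of the start. It was found for 7.64% of the 27025 genes with a promoter entry and for 8.36% of the 2642 tested genes that matched. Among matched ribosomal protein genes 24 of 61 had it (39.3%), among genes called higher 9.76%, and among genes called lower 8.17%. Without ribosomal protein genes the share among genes called higher was 7.04%. Ribosomal protein mRNAs with the tract had a median difference of 1.45 (20 of 24 rose, 0 fell), and those without it at the annotated start 0.76 (23 of 37 rose, 5 fell). A match describes the letters at the annotated start and does not show a working element.

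Of the members that rose, Rps27, Rpl38 and Rplp2 did so most; Rps27 is given further on. Rpl38 (chr11:114667818-114672333), a large-subunit protein, had 149337, 170070 and 212052 normalized counts on polysomes (lowest, median, highest of 6) and 7808, 9207 and 10096 in cytoplasm. All 6 polysome libraries were far above all cytoplasm libraries (4.27 ± 0.11, adjusted p = 4.44e-08). Rplp2 (chr7:141447651-141451359), a protein of the stalk that recruits elongation factors, had 232191, 275319 and 337392 on polysomes against 16696, 19268 and 21367 in cytoplasm, again without overlap (3.86 ± 0.12, adjusted p = 5.32e-08). Its partner Rplp1 was also higher (2.76), as were the small-subunit members Rps21 (3.28), Rps28 (2.88) and Fau (2.25), which is made as a fusion with a ubiquitin-like protein, and the large-subunit member Rpl37a (2.86). The 2 genes floxed in this study were both higher on polysomes. Rps19 (chr7:24884592-24889811) had 38127, 50311 and 62393 on polysomes against 16201, 18496 and 20144 in cytoplasm (1.43 ± 0.12, adjusted p = 1.11e-05). Rpl5 (chr5:107900508-107909005) had 966, 2142 and 3301 on polysomes against 866, 1014 and 1112 in cytoplasm (0.92 ± 0.24, adjusted p = 0.0107), with overlapping groups, and its call was lost after thinning and in the Rps19flox/+ pools alone.

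Some members went the other way. Rpl4 (chr9:64173387-64178562), one of the longest ribosomal proteins, had 8259, 10868 and 11849.9 normalized counts on polysomes (lowest, median, highest of 6) and 28861, 35647 and 36647 in cytoplasm, and no library of one fraction reached the other (-1.72 ± 0.11, adjusted p = 2.39e-06). Rplp0, the base of the stalk that carries Rplp1 and Rplp2, was lower as well (-0.75 ± 0.11, adjusted p = 0.00054). So members of 1 structure lay on opposite sides. Rpl10 (-4.83 ± 1.02, adjusted p = 0.00357) had no read in 2 polysome libraries, and Rpl12 (-2.42 ± 0.89, adjusted p = 0.0411) had none in 1, and its call was not kept without Rpl5flox/+ replicate 1, Rpl5flox/+ replicate 3 or Rps19flox/+ replicate 1. Rps2, the 1 small-subunit member that fell, did so by little (-0.36 ± 0.11, adjusted p = 0.0196) and lost its call after centring and without Rpl5flox/+ replicate 1. Rps6, the subunit that growth signals phosphorylate, was at 17114, 24348 and 32320.2 on polysomes against 23529.5, 25942 and 29086 in cytoplasm (-0.13 ± 0.13, adjusted p = 0.39), with overlapping groups and the sign turned after centring (0.061). Rpl35 was at -0.22 ± 0.16, adjusted p = 0.241, with the sign turned in the deeper pools (0.15). Ribosomal protein genes have many processed copies in the genome that can take up their reads.

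Rps27 and its near-identical copy Rps27rt lay on opposite sides, and reads of one copy can be counted for the other. Rps27 (chr3:90212667-90213648) had 12803, 16991 and 24734 normalized counts on polysomes (lowest, median, highest of 6) and 315, 939 and 1601 in cytoplasm (4.39 ± 0.32, adjusted p = 5.66e-06). Rps27rt (chr9:114982366-114982739) was listed at 0 in all 6 polysome libraries and at 6102, 7089 and 8116 in cytoplasm (-9.87 ± 0.79, adjusted p = 9.29e-06, a fitted value and no bound). Summed, an alternative added after these values were seen, they had 17649.7 ± 4675 normalized counts on polysomes and 8062 ± 590.1 in cytoplasm (SD, n = 6), a log2 difference of 1.09 ± 0.35 (SD), higher in 6 of 6 pools. An exact two-sided sign-flip permutation test over the 6 pools gave p = 0.0312, the smallest it can give.

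Other mRNAs of the TOP class, which encode elongation factors and helpers of translation, had shares near those of all genes (23.8% and 35.5%): 7 of 26 tested members rose and 10 fell (median -0.20). Eef1a1 (chr9:78478453-78481724), which brings tRNAs to the ribosome, had 35238, 45747 and 52844 normalized counts on polysomes (lowest, median, highest of 6) and 111710, 123549 and 127188 in cytoplasm. Every polysome library was below every cytoplasm library (-1.42 ± 0.13, adjusted p = 1.66e-05), although its start carries the tract shown above. Eef2, which moves the ribosome along, was lower too (-1.14 ± 0.12, adjusted p = 7.22e-05), as was Pabpc1, the poly(A)-binding protein (-1.94 ± 0.26, adjusted p = 0.000233). In contrast Eef1d, a subunit of the factor that reloads Eef1a1, was higher at 39894, 50642 and 58491 on polysomes against 6422, 6905 and 7200.5 in cytoplasm (2.84 ± 0.10, adjusted p = 1.44e-07). Eif3k was higher (1.87), Eif2s3x fell (adjusted p = 0.000102) and so did Tpt1 (-0.63 ± 0.14, adjusted p = 0.00469), a growth-related TOP mRNA, while Eif3f was at -0.25 ± 0.14, adjusted p = 0.144.

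Initiation factors had shares near those of all genes (23.8% and 35.5%): 8 of 30 tested members rose and 10 fell, with a median of -0.11, and 11 rose and 14 fell of 30 in the deeper pools. Eif5b (chr1:37998010-38055579), which joins the subunits, had 4577, 7505 and 14028 normalized counts on polysomes (lowest, median, highest of 6) and 733, 1022 and 1115 in cytoplasm (2.92 ± 0.25, adjusted p = 1.25e-05), and the 3 shallower libraries held its 3 highest polysome values. Eif2b4, part of the factor that recharges eIF2, was at 4341, 6813 and 6971 on polysomes against 794, 821 and 886 in cytoplasm (2.82 ± 0.15, adjusted p = 1.26e-06), with no overlap. Lower on polysomes were Eif4e, which binds the mRNA cap, at 117, 432 and 612 on polysomes against 2161, 2224 and 2485 in cytoplasm (-2.59 ± 0.31, adjusted p = 0.00011), and its partner helicase Eif4a1 (-1.22 ± 0.093, adjusted p = 7.07e-06). Eif2a was lower (-3.33 ± 1.04, adjusted p = 0.0216) with no read in 2 of the shallower libraries.

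The 13 mRNAs encoded in mitochondrial DNA, which are translated by ribosomes inside mitochondria, were scarce on polysomes. Of 12 tested members 10 fell, with a median of -3.24, beside 35.5% lower over all genes. In the deeper pools 11 were tested, without mt-Nd6, and all 11 fell. mt-Nd1, a complex I subunit, had 1743, 2431 and 3074 normalized counts on polysomes (lowest, median, highest of 6) and 32820.5, 40828 and 57361 in cytoplasm (-4.20 ± 0.15, adjusted p = 1.2e-07), mt-Nd2 was likewise lower (-4.88 ± 0.28, adjusted p = 1.42e-06), and the members called lower ranged from -7.16 (mt-Atp6) to -2.46 (mt-Cytb). The value of mt-Atp6 is a fitted value and no bound, since that gene had no read in any Rps19flox/+ polysome library, as given further on. mt-Co3, a subunit of complex IV, did not pass (-0.57 ± 0.41, adjusted p = 0.249). mt-Nd6, the member read from the opposite strand to the others, was the exception. It had 618, 731 and 1956 on polysomes against 61.6, 152 and 163 in cytoplasm, a log2 difference of 2.60. It passed the filter only through its polysome level, so this is a description, given without its test. Whether counting used the strand is not given in the sources used here, so reads of mt-Nd6 and of RNA antisense to it cannot be told apart.

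Respiratory chain proteins that are encoded in the nucleus and made on cytoplasmic ribosomes differed by complex. For complex I 24 of 36 tested members rose and 1 fell (median 0.85), beside 23.8% and 35.5% over all genes. In the deeper pools 29 rose and 1 fell of 36, and after thinning 18 rose and 1 fell (median 0.538, against -0.735 over all genes). Ndufb7, an accessory subunit (chr8:83566758-83571623), had 14372, 19355 and 22624 normalized counts on polysomes (lowest, median, highest of 6) and 1529, 1635 and 1934 in cytoplasm (3.47 ± 0.10, adjusted p = 5.32e-08). Ndufa2 (3.34) and Ndufa5 (3.31) were close to it, and Ndufa10 was the member that fell (-0.85 ± 0.20, adjusted p = 0.00585). For complexes II to IV 11 of 24 tested members rose and 10 fell (median -0.15, which turned to 0.29 in the deeper pools and 0.04 after centring). Uqcr11 of complex III (2.47 ± 0.15, adjusted p = 1.92e-06) and Cox6b1 of complex IV (2.31 ± 0.17, adjusted p = 5.02e-06) rose, whereas Uqcrc2, a core protein of complex III (-1.89 ± 0.32, adjusted p = 0.0011), and Sdhd, a membrane anchor of complex II (-1.93 ± 0.19, adjusted p = 2.86e-05), fell. Of mitochondrial ribosomal proteins 21 of 62 tested members rose and 7 fell (median 0.31), a lower share falling than over all genes. In the deeper pools 34 rose and 14 fell of 64, and after thinning 15 rose and 15 fell of 62 (median -0.0696). At a filter of 10, 21 rose and 13 fell of 78 (median -0.025), beside 7.69% and 37.4% over all genes. Mrps16 was the highest (2.14 ± 0.13, adjusted p = 1.74e-06), and the lowest, Mrpl34, did not pass (-2.12 ± 0.83, adjusted p = 0.051). Cycs, the electron carrier cytochrome c, was lower (-1.30 ± 0.45, adjusted p = 0.0312), a call lost without Rpl5flox/+ replicate 1.

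**Figure D2:**
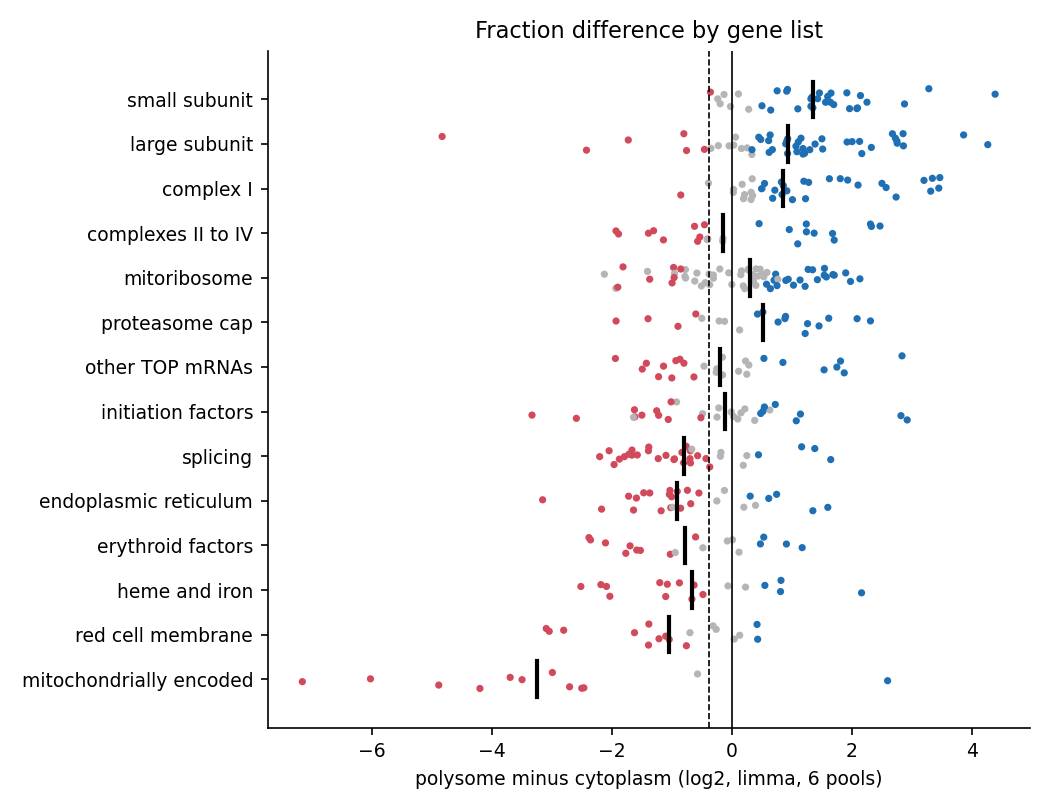
Log2 difference, polysome minus cytoplasm, of each tested member of 14 gene lists (x axis); blue points were called higher, red points lower and grey points passed no threshold, and black bars are list medians. The solid line marks 0 and the dashed line the median of all tested genes (-0.39); both ribosomal lists and complex I lie to the right, and the mitochondrially encoded list to the left.

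Replication-dependent histone genes, which make the histones of newly copied DNA, were the group farthest to the polysome side. They were grouped after their values were seen, by symbol (replication-dependent linker histone genes and the H2ac, H2bc, H3c and H4c genes), so their values are a description. Their mRNAs end in a stem-loop in place of a poly(A) tail, and these libraries were made by capture of poly(A). Of the 63 in the table, 60 had a higher mean on polysomes. Only 21 passed the filter, most of them through the polysome libraries, so no count is drawn from those. At a filter of 10, which 61 of the 63 passed, 43 rose and 1 fell, where 7.69% of all genes rose and 37.4% fell. Together the 63 genes took 0.493, 0.103, 0.372, 0.296, 0.107 and 0.252% of polysome reads (Rpl5flox/+ replicates 1 to 3, then Rps19flox/+ replicates 1 to 3) and 0.0251 to 0.0432% of cytoplasm reads. The 2 deepest polysome libraries, Rpl5flox/+ replicate 2 and Rps19flox/+ replicate 2, held the lowest shares, yet both were above every cytoplasm library. The part of depth in this was not tested.

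Single histone genes are given as a description, without their tests, since they passed the filter only through their polysome level. H1f5 (chr13:21779832-21780625), a linker histone, had 2398, 726, 4751, 3448, 350.2, 2342 normalized counts on polysomes in the same order of pools and 26.3, 30.8, 104, 44.9, 29.8, 89 in cytoplasm, with a log2 difference of 4.79. H2bc12 was at 299, 1715 and 4698 on polysomes against 19.9, 37.4 and 53.4 in cytoplasm (4.99), and H1f3 (4.39), H3c15 (4.72) and H4c17 (5.14) were similar. Genes of 1 histone type are nearly identical in their coding sequence. Histone variants made outside replication lay on both sides, and those named were picked after their values were seen. H2aj was at 2.58. H2az1 had 4909.8, 5365 and 5805 on polysomes against 12964, 13883 and 14701 in cytoplasm (-1.36 ± 0.087, adjusted p = 2.27e-06), and H3f3a was lower as well (-1.97 ± 0.13, adjusted p = 2.19e-06).

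Lars2 (chr9:123366927-123462675), the leucyl-tRNA synthetase of mitochondria, was the single most abundant gene of the polysome libraries. It took 10.3 to 54.9% of their reads and 0.559 to 2.12% of cytoplasm reads, a mean difference of 30 ± 19.8 percentage points (SD, n = 6 pools; exact two-sided sign-flip permutation test, p = 0.0312, the smallest possible). The cytoplasm libraries with the highest shares, Rpl5flox/+ replicate 3 (2.12%) and Rps19flox/+ replicate 3 (1.37%), came from the pools whose polysome shares were also the highest. Of the 17 mitochondrial synthetases in the table, 6 had a higher mean on polysomes, and at a filter of 10, which all 17 passed, 3 rose and 5 fell (median -1.28), beside 7.69% and 37.4% over all genes. Lars2 itself was at 5.62 ± 0.35, adjusted p = 1.96e-06. Which RNA gave these reads was not tested.

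**Figure D3:**
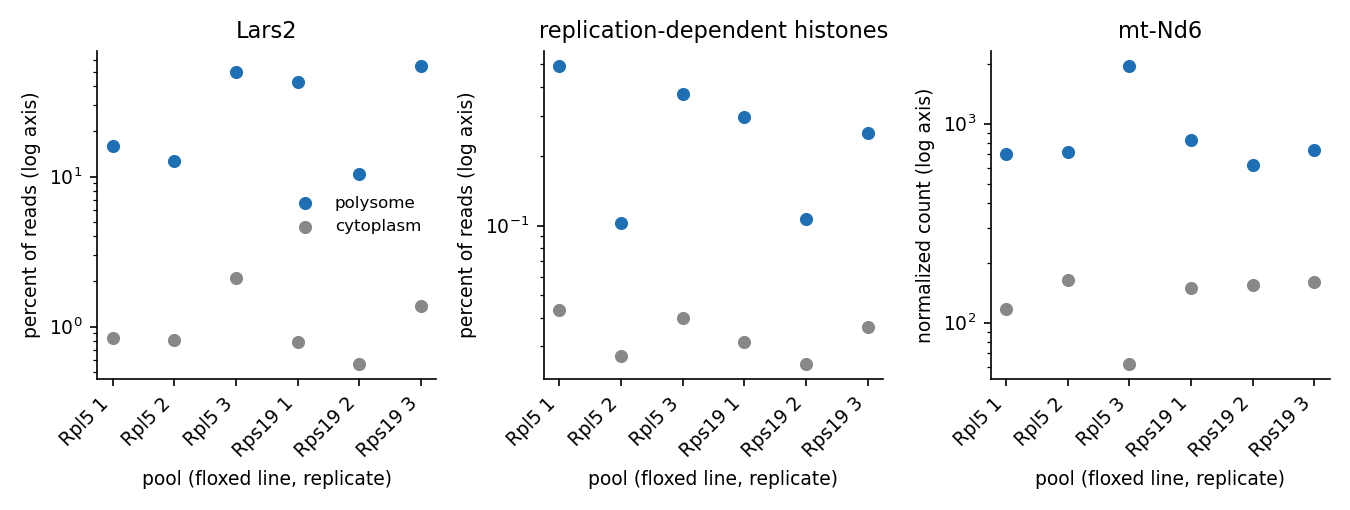
Values in each of the 6 pools (x axis, floxed line and replicate) on polysomes (blue) and in cytoplasm (grey), on log axes: percent of reads on Lars2, percent of reads on the 63 replication-dependent histone genes, and normalized count of mt-Nd6. In all 3 panels every polysome value is above every cytoplasm value, and Lars2 is highest in the 3 shallower polysome libraries.

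The mRNAs of protein quality control were mixed, with the proteasome mostly higher on polysomes or not called and the endoplasmic reticulum mostly lower. Of the regulatory cap of the proteasome 11 of 19 tested members rose and 4 fell (median 0.52), beside 23.8% and 35.5% over all genes. Of its core 6 of 14 tested members rose and 3 fell (median 0.28). After thinning the cap had 9 rose and 5 fell (median 0.26) and the core 5 rose and 5 fell (median -0.0838). Psmc5, a cap ATPase, had 9701, 12204 and 14224 normalized counts on polysomes (lowest, median, highest of 6) and 2237, 2371 and 2654 in cytoplasm (2.31 ± 0.10, adjusted p = 3.62e-07), and Psmb5, a catalytic core subunit, was similar (2.33 ± 0.10, adjusted p = 3.62e-07). Psma1, another core subunit, fell (-2.69 ± 0.85, adjusted p = 0.0231), with no read in Rps19flox/+ replicate 1. Among cytosolic chaperones 7 of 19 tested members rose and 6 fell, the latter near the share over all genes. Hsp90aa1, the inducible form of Hsp90, was at 86361, 115095 and 316675 on polysomes against 8683, 10977 and 13068 in cytoplasm (3.61 ± 0.26, adjusted p = 5.02e-06), with its highest value in Rpl5flox/+ replicate 3. Among proteins of the endoplasmic reticulum 5 of 27 tested members rose and 17 fell (median -0.91), and 6 rose and 18 fell of 27 in the deeper pools. Calr, a lectin chaperone, was lower at 2356, 3017 and 3676 on polysomes against 6864, 7701 and 8432 in cytoplasm (-1.37 ± 0.13, adjusted p = 2.51e-05), while Hsp90b1, the Hsp90 of that compartment, was higher (1.60 ± 0.13, adjusted p = 1.13e-05). Stt3a, which attaches sugars to new proteins, fell (-3.15 ± 0.83, adjusted p = 0.0104) with no read in Rps19flox/+ replicate 1.

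Splicing factor mRNAs were mostly low on polysomes: 4 of 33 tested members rose and 24 fell (median -0.80), beside 23.8% and 35.5% over all genes. The counts in the deeper pools were 4 rose and 23 fell of 33. Srsf1, which promotes the use of exons, had 1584, 2004 and 5439 normalized counts on polysomes (lowest, median, highest of 6) and 7853, 8238 and 9389 in cytoplasm (-1.87 ± 0.23, adjusted p = 0.000162), with no overlap between fractions. Members that rose included Hnrnpm (1.65 ± 0.10, adjusted p = 1.96e-06), an RNA-binding regulator of splicing. Srsf11 was the lowest of the list (-2.20 ± 0.82, adjusted p = 0.0428), a call lost without Rpl5flox/+ replicate 1, Rpl5flox/+ replicate 2 or Rps19flox/+ replicate 2. Ribosome biogenesis factors lay nearer to the middle: 12 of 36 tested members rose and 6 fell (median 0.15). Polr2l, a small subunit shared by the RNA polymerases, ranked 15 among genes higher on polysomes in all pools with a mean of at least 1000 in the higher fraction, at 22299, 26321 and 37054 on polysomes against 1407, 1597 and 1751 in cytoplasm (4.07 ± 0.11, adjusted p = 4.93e-08).

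The mRNAs that mark red cell development differed by group, with membrane proteins lower. Of erythroid transcription factors 4 of 18 tested members rose and 9 fell (median -0.77), beside 23.8% and 35.5% over all genes. In the deeper pools 4 rose and 7 fell of 16, with a median of -0.27 against -0.29 over all genes. Tal1 had 729, 831 and 1043 normalized counts on polysomes (lowest, median, highest of 6) and 2521, 2808 and 3002 in cytoplasm (-1.69 ± 0.15, adjusted p = 1.52e-05), and Zfpm1, the partner of Gata1, was lower as well (-1.58 ± 0.19, adjusted p = 0.00011). Klf1 was lower (-1.02 ± 0.20, adjusted p = 0.00225), and so was Gata1 (-0.60 ± 0.20, adjusted p = 0.0267), whose call was lost without Rps19flox/+ replicate 1 or replicate 3, in the deeper pools and after centring. E2f2, which drives cell division, rose (1.17 ± 0.22, adjusted p = 0.00172). In the red cell membrane list 2 of 17 tested members rose and 10 fell (median -1.04). Slc4a1 fell (-1.10 ± 0.14, adjusted p = 0.000195), as did Rhag (-2.80 ± 0.47, adjusted p = 0.000923). Cd47, which protects cells from being engulfed, was the lowest (-3.09 ± 0.91, adjusted p = 0.017), with no read in Rps19flox/+ replicate 1.

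Of the heme and iron uptake list 4 of 17 tested members rose and 11 fell (median -0.66), beside 23.8% and 35.5% over all genes. Alad, an early enzyme of heme synthesis, was far above the others at 18726, 27727 and 37321 on polysomes against 5559, 6175 and 7041 in cytoplasm (2.16 ± 0.13, adjusted p = 1.92e-06). Slc25a37, the mitochondrial iron importer, fell (-2.18 ± 0.17, adjusted p = 8.38e-06), and so did the transferrin receptor Tfrc (-1.20 ± 0.14, adjusted p = 0.000106). Among mRNAs with iron-responsive elements 1 of 6 tested members rose and 4 fell. The 2 ferritin mRNAs, which carry the element in their leaders and are held off ribosomes when iron is scarce, did not lie together. Fth1 had 4499, 4836 and 6688 normalized counts on polysomes (lowest, median, highest of 6) and 16519.9, 18438 and 19314 in cytoplasm (-1.83 ± 0.11, adjusted p = 1.53e-06), and Ftl1 had 20116, 26415 and 31056 on polysomes against 25946, 26619.7 and 28727 in cytoplasm (-0.087 ± 0.11, adjusted p = 0.495). Alas2, which starts heme synthesis in red cells and carries the same element, was higher in 5 of 6 pools (0.55 ± 0.17, adjusted p = 0.023), and its call was lost without Rpl5flox/+ replicate 2, Rpl5flox/+ replicate 3 or Rps19flox/+ replicate 2. Of the globin list 2 of 4 tested members rose and 0 fell. Hba-a1, an alpha-globin gene with a near-identical copy, was higher (1.89 ± 0.15, adjusted p = 7.79e-06), while Hbb-bt was at 0.15 ± 0.13, adjusted p = 0.329 and turned to -0.22 after thinning. Ftl1 turned to 0.10 after centring and in the deeper pools.

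Several progenitor mRNAs were lower, while the cell cycle lists lay nearer to all genes. In the stem and progenitor list 5 of 25 members in the table passed the filter, and 3 of them fell. Kit had 386, 489 and 1142 normalized counts on polysomes (lowest, median, highest of 6) and 1382, 1574 and 1971 in cytoplasm (-1.39 ± 0.31, adjusted p = 0.00476). Myb (-1.05 ± 0.19, adjusted p = 0.00167) and Myc (-2.04 ± 0.30, adjusted p = 0.000426), 2 transcription factors of dividing progenitors, were lower too, each in 6 of 6 pools. For G1/S and replication 2 of 21 tested members rose and 8 fell, beside 23.8% and 35.5% over all genes, and the median (-0.39) was that of all genes. Mcm4 of the replicative helicase was at -0.97 ± 0.22, adjusted p = 0.00498. For G2/M 3 of 18 tested members rose and 9 fell, and Aurkb, a mitotic kinase, was at -2.78 ± 0.78, adjusted p = 0.0136. Ccnb2, a mitotic cyclin, fell (-3.11 ± 0.77, adjusted p = 0.00786) with no read in Rps19flox/+ replicate 1, whereas Birc5, the survivin of the dividing spindle, rose with no overlap (1.38 ± 0.095, adjusted p = 3.52e-06). Among mRNAs known for upstream reading frames 1 of 12 tested members rose and 8 fell (median -0.69). In the deeper pools 3 rose and 7 fell of 13, with a median of -0.40 against -0.29 over all genes. Azin1 was lower (-3.04 ± 0.77, adjusted p = 0.00904), with -7.71 in Rps19flox/+ replicate 1 and -2.97 to -0.92 in the other pools. Odc1, which starts polyamine synthesis, was lower by less (-0.44 ± 0.095, adjusted p = 0.00368). Atf4, the stress-response factor, was at -0.36 ± 0.12, adjusted p = 0.0291, a call that held without Rps19flox/+ replicate 2 and failed without any 1 of the other 5 pools. Cdkn1a was below the filter, at 0, 82.5 and 146 on polysomes against 54.4, 70.1 and 91 in cytoplasm.

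Hepatocyte mRNAs were higher on polysomes in cells sorted for Kit: 7 of 8 tested members rose and 0 fell (median 1.82), beside 23.8% and 35.5% over all genes. The others were below the filter, which a gene can pass through its high fraction alone, so these counts are a description. At a filter of 10, which all 21 in the table passed, 8 rose and 0 fell (median 0.968), beside 7.69% and 37.4% over all genes. All 21 had a higher mean on polysomes. Afp, the fetal serum protein, had 3014, 11689.9 and 13155 normalized counts on polysomes (lowest, median, highest of 6) and 1286, 3302 and 6345 in cytoplasm, and the groups overlapped while each polysome library was above the cytoplasm library of its own pool (1.67 ± 0.24, adjusted p = 0.000345). Apoa1 (1.97) and Apoa2 (2.32), proteins of lipoproteins, were higher as well and are given as a description, without their tests. The call for Alb was lost without Rpl5flox/+ replicate 3 or Rps19flox/+ replicate 3, in the deeper pools and without the pool block (0.82 ± 0.26, adjusted p = 0.0239). Of 19 granulocyte and monocyte genes, 7 had a higher mean on polysomes, and at a filter of 10, which all 19 passed, 5 rose and 5 fell (median -1.41), beside 7.69% and 37.4% over all genes. The part of hepatocyte, granulocyte and monocyte RNA in other differences was not tested.

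Genes that span little of the genome were on the polysome side. The span runs from the first to the last annotated base, introns included, and 3182 of the tested genes had one; lengths of mature mRNAs or coding sequences were not used here. The median difference was 2.84 for the 42 genes of up to 1 kb, 0.71 for 212 genes of 1 to 3 kb, 0.0041 for 787 genes of 3 to 10 kb, -0.45 for 1249 genes of 10 to 30 kb, -0.77 for 771 genes of 30 to 100 kb and -0.52 for 121 longer genes. In the shortest class 71.4% rose and 11.9% fell, and between 30 and 100 kb 10.4% rose and 46.0% fell. The shortest class includes histone genes that passed the filter through their polysome level, so its median and shares are a description. Without ribosomal protein and histone genes the shortest 2 classes had medians of 1.16 (21 genes) and 0.57 (175 genes). Of these genes 61.9% and 45.7% rose, and 23.8% and 14.3% fell. Across genes the rank correlation of span and difference was -0.30 (Spearman, 3182 genes of the same libraries, which are not independent), between -0.37 and -0.17 in single pools, and -0.26 without those 2 groups.

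**Figure D4:**
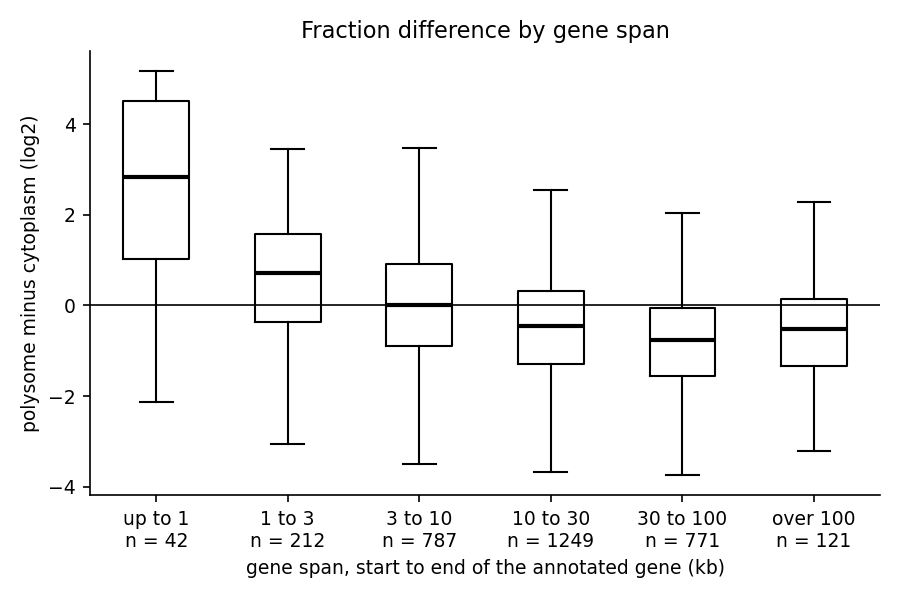
Log2 difference, polysome minus cytoplasm (y axis), of tested genes in 6 classes of gene span in kb (x axis); boxes give the quartiles with the median as a thick line, whiskers follow the usual box plot rule, and outlying points are not drawn. Medians fall from 2.84 in the shortest class to -0.77 between 30 and 100 kb. The shortest class includes histone genes that passed the filter through their polysome level.

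Whether the 2 floxed lines gave the same fraction difference was asked by subtracting the difference in Rps19flox/+ pools from that in Rpl5flox/+ pools. Of 3206 genes 1 was called (0.0312%), and 73 had an unadjusted p under 0.05. With voom weights on the recovered reads 73 genes were called, and under every other alternative run 1. The gene was mt-Atp6, a subunit of the mitochondrial ATP synthase. On polysomes it had 4839.7, 3978 and 4512 normalized counts in the Rpl5flox/+ pools and was listed at 0 in all 3 Rps19flox/+ pools, while in cytoplasm it had 42445, 34291, 17405, 21026, 26012, 23058 in the same order of pools. Its difference between lines was 8.86 ± 0.37 (adjusted p = 1.88e-05), a fitted value that depends on the scale at 0 and is no bound. The neighbouring mt-Atp8, which overlaps it in the mitochondrial genome, was lower over the 6 pools (-6.02 ± 0.86, adjusted p = 0.000384), and how reads of the overlap were counted is not given in the sources used here. Fits on 1 line called 1679 genes in Rpl5flox/+ pools and 861 in Rps19flox/+ pools, 2 of whose 3 polysome libraries held under 2 M reads.

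The last comparison tested which differences were larger or smaller in Kit+ cells than in maturing red cells, taken as Ter119+ cells from the same kind of control livers (5 pools with both fractions). Of 3685 genes tested 10.1% were called, 240 more on the polysome side in Kit+ cells (6.51%) and 134 less (3.64%). Ribosomal proteins of the small subunit were among them: 13 of 33 were more on the polysome side in Kit+ cells and 0 less, with 14 and 4 of 49 for the large subunit. In Ter119+ cells alone the same lists had medians of 0.93 and 0.78, and 26 of 33 and 37 of 49 members rose, where 51.7% of all genes were called in either direction and 13.8% were higher, so both cell types shared the direction. The Ter119+ polysome libraries held 4.59 to 39.8 M reads with 0.166 to 17.3% on Lars2, so depth moves with cell type and its part was not tested.

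Rpl38 was more on the polysome side in Kit+ cells (1.62 ± 0.29, adjusted p = 0.00696), as were Rplp2 (1.44 ± 0.28, adjusted p = 0.00946) and Eif2b4 (2.23 ± 0.26, adjusted p = 0.00111). Eif5b (2.22 ± 0.42, adjusted p = 0.00918) and Hsp90aa1 (2.34 ± 0.49, adjusted p = 0.0134) differed in the same direction. Of the proteasome cap 8 of 19 members were higher in Kit+ cells and 0 lower, with Psmc5 at 1.64 ± 0.23, adjusted p = 0.00183, and of complex I 10 of 36 and 0. Complexes II to IV went the other way, with 0 of 24 higher and 6 lower, among them Sdhd (-1.53 ± 0.33, adjusted p = 0.0146). In Ter119+ cells alone complexes II to IV had 12 rose and 2 fell (median 0.571), and complex I 26 rose and 1 fell (median 0.866). The proteasome cap there had 3 rose and 4 fell (median -0.157), beside 13.8% higher and 38.0% lower over all genes. Also more on the cytoplasm side in Kit+ cells were Eif4e (-1.82 ± 0.40, adjusted p = 0.0146), Eef1a1 (-0.66 ± 0.17, adjusted p = 0.0262) and H2az1 (-1.22 ± 0.27, adjusted p = 0.0152). The mitochondrially encoded list held 0 calls of 11, and its members fell in Ter119+ cells too (11 of 11). Rps27rt (-9.82 ± 2.21, adjusted p = 0.0172) and Rps27 (3.42 ± 0.44, adjusted p = 0.00163) are near-identical copies, and in Ter119+ cells Rps27rt was at -0.055.

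The number of calls depended on single pools. It was 231 without Rpl5flox/+ Kit+ replicate 1, 163 without Rpl5flox/+ Ter119+ replicate 1, 186 without Rpl5flox/+ Ter119+ replicate 2 and 167 without Rps19flox/+ Ter119+ replicate 2. Without the pools under 2 M polysome reads 371 genes were called, 190 higher and 181 lower in Kit+ cells, of which 214 were among the 374.

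**Figure D5:**
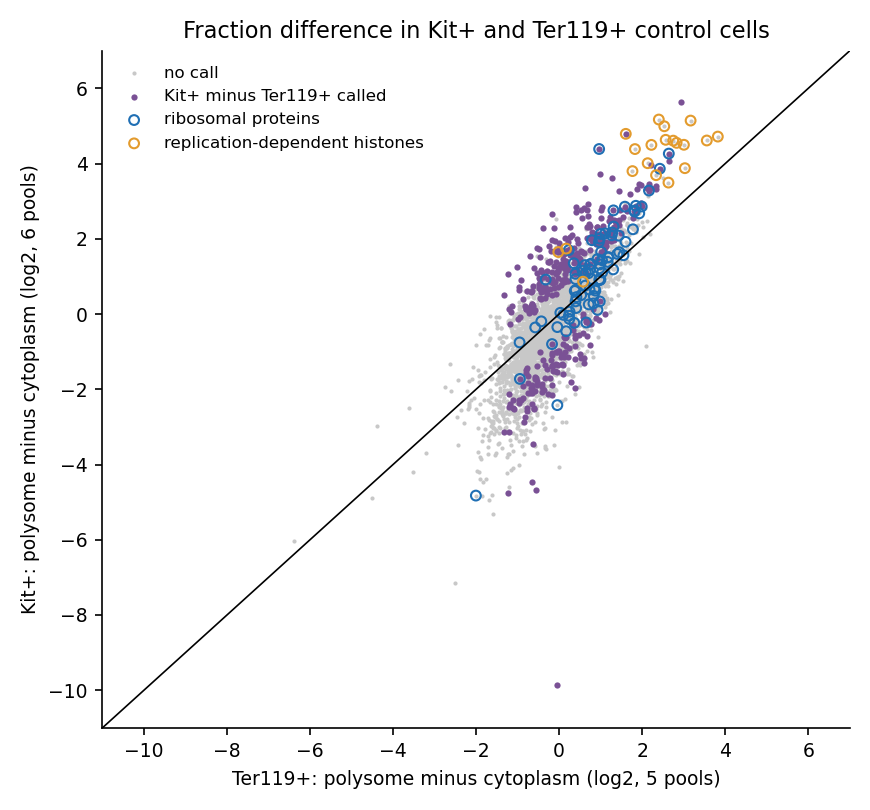
Log2 difference, polysome minus cytoplasm, in Ter119+ (x axis, 5 pools) and Kit+ control cells (y axis, 6 pools) for genes tested in both, with the line of equality. Purple points differ between cell types by limma, blue rings are ribosomal proteins and orange rings replication-dependent histones. Both sets of rings lie mostly on the polysome side of 0 in Ter119+ and in Kit+ cells. The histones were grouped after their values were seen, and most passed the Kit+ filter through the polysome libraries, so their rings are a description.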

How the data were processed

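RNA was measured in 45 libraries, of which 12 form the comparison and 11 more are from control Ter119+ cells, of which 5 pools have both fractions and enter the last comparison. The deposited table holds log2 values; their form is that of variance-stabilised, size-factor-scaled counts, as the values show: inverting it gave whole reads for 100.0% of values (tolerance 1e-06). Per the submitters' processing notes the build was mm10; aligner, counter and strand setting: not given in the sources used here. No 2 replicates were copies (lowest chi-square per degree of freedom 22.28 over 43 pairs).

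Normalized counts were taken from the inversion. Tests were made with limma (version 3.58.1, under R 4.3.3; eBayes with an intensity trend) on the deposited log2 values of genes with a mean of at least 500, a high floor because of the shallow polysome libraries. The same fit was run on simulated data with a set spread and changes of random sign in a small part of the genes. That run does not give its error rate in these libraries. The pool was a block, since the labels give both libraries of a pool 1 batch name; deviations of the 2 libraries from their group means correlated at -0.024 to 0.192. Each p-value reflects the spread among pooled libraries and nothing wider. Alternatives were other floors, log2 offsets, centring, no block, voom weights, thinning, and pools left out. The planned coding length could not be used, so gene span replaced it.

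Genes named are a fixed set, the 15 largest differences in each direction that held in all pools with a mean of at least 1000, and in each list the 6 members with the smallest p and the 3 highest and 3 lowest, of which a subset is given; Rplp0, Rplp1, Rps6, Rpl35, Eif2s3x, Eif3f, Srsf1, H2az1, H3f3a and H2aj were added after their values were seen, as were the Kit+ and Ter119+ differences printed and the 8 starts. The members and lists were chosen with earlier results of these data known. Malat1 and Neat1 were not analysed here. Start sequences and positions are from RefSeq (GRCm38.p6).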

Additional observations from a re-analysis of the deposited data

Results flagged for a closer look

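In 16 of 131 sets of 6 per-pool differences, for genes and lists, 1 pool lay far from the others; chance alone gives about 1 in 20. In Rps19flox/+ replicate 3 these were Rpl12 at -8.06 (others -2.42 to 0.17) and the median of the endoplasmic reticulum list at -0.30 (others -0.73 to -0.61). In Rps19flox/+ replicate 2 it was Tpt1 at 0.11 (others -0.93 to -0.58). In Rpl5flox/+ replicate 3 these were mt-Nd6 at 4.70 (others 1.90 to 2.45), Mrps16 at 1.88 (others 2.14 to 2.29) and Hsp90aa1 at 5.19 (others 2.99 to 3.78). In Rps19flox/+ replicate 1 these were Uqcrc2 at -3.80 (others -1.94 to -1.20), Mrpl34 at -7.22 (others -2.44 to -0.29), Psma1 at -8.30 (others -2.06 to -1.30), Stt3a at -8.14 (others -3.25 to -0.36), Srsf11 at -7.27 (others -2.18 to -0.29), Cd47 at -9.05 (others -2.54 to -0.82), Azin1 at -7.71 (others -2.97 to -0.92), Ccnb2 at -8.05 (others -2.58 to -1.68) and the median of the upstream reading frame list at -0.93 (others -0.51 to -0.38). In Rpl5flox/+ replicate 2 it was the median of the heme and iron list at -1.12 (others -0.69 to -0.48). Rps19flox/+ replicate 1 has the shallowest polysome library, and several of its values come from genes with no read there. The part of depth in these values was not tested.

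The fraction difference of mt-Atp6 differed between the floxed lines by 8.86. Between cell types, Kit+ minus Ter119+, the interaction term passed for the genes that follow, H1f5 aside, chosen after their values were seen. More on the polysome side in Kit+ cells were Rps27 (3.42), Lars2 (2.70), Hsp90aa1 (2.34), Eif2b4 (2.23), Eif5b (2.22), Psmc5 (1.64), Rpl38 (1.62), E2f2 (1.60), Psmb5 (1.59), Rplp2 (1.44), Alad (1.36), Ndufb7 (1.30), Rps21 (1.12). More on the cytoplasm side were Rps27rt (-9.82), Eif4e (-1.82), Sdhd (-1.53), H2az1 (-1.22), Rpl35 (-0.88), Eif4a1 (-0.82), Eef1a1 (-0.66). For H1f5 the difference between cell types was 3.19. This gene passed the Kit+ filter only through its polysome level, so its value is a description, given without its test.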

How the results depend on the processing

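Of 100 tested genes followed through the alternatives, 68 kept their direction and side of the threshold under all 18 alternatives. The number of genes called was 4824 at a floor of 10, 3405 at 100, 637 at 2000 (fewer or more genes being tested) and 861 in Rps19flox/+ pools alone, against 1899; leaving out each pool gave 1579 to 1961, and without the pool block it was 1976, which changed no count of calls by over 1.5 times. The median of all genes was -1.32, -1.09 and 0.281 at those floors, -0.196 after centring, -0.249 with voom, -0.735 after thinning, -0.292 without the shallow pools, -0.266 and -0.333 in Rpl5flox/+ and Rps19flox/+ pools alone, and -0.388 to -0.311 leaving out each pool. The line difference gave 73 genes with voom, and 1 without the block. The cell type difference gave 246 at a floor of 10, 465 without the block, and 163 to 426 leaving out each pool. Signs turned for Rps6 (0.061 after centring), Rpl35 (0.15 without the shallow pools), Ftl1 (0.10 under both), Hbb-bt (-0.22 after thinning) and Rps27rt (1.09 when summed with Rps27, a form added after seeing the data). The causes were not tested. At 1.01 M reads a gene at the floor of 500 has about 24.1 reads, which limits low genes.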
